A study of Mus musculus with 6 samples.

Results

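The surface marker genes examined were Kit, Ly6a, Slamf1, Procr, Esam, Cd27, Cd48, Cd34 and Flt3, which encode proteins that separate long-term haematopoietic stem cells (LT-HSCs) from the multipotent progenitors they give rise to. They were chosen by name, and all 9 were found among the 23235 genes of the deposited table. RNA came from bone marrow LT-HSCs of mice aged 2 months, 3 libraries from Hmces knockout (KO) mice and 3 from wild type (WT) mice, each from 1500 sorted cells. All 6 libraries are listed under C57BL/6 and carry a tag of 13 bp in their titles, WT included, whose meaning is not given. The design text speaks of duplicates, whereas the labels give 3 libraries per genotype, which were used. The sort antibodies and gates, the Hmces allele, and whether each library came from its own mouse or from pooled mice stay unstated: each is not given in the sources used here. P-values therefore measure the spread between these libraries, which may be technical.

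LT-HSCs can rebuild blood formation for life and are very rare in the marrow. In the mouse they are usually sorted as cells without mature lineage markers that carry KIT and Sca-1 (the Ly6a product), with CD150 (Slamf1) present and CD48, CD34 and FLT3 absent or low at the surface. EPCR (Procr) and ESAM are further surface proteins enriched on mouse stem cells, and CD27 is carried by stem cells and by many progenitors. CD48, CD34 and FLT3 appear as stem cells become multipotent progenitors. Transcript levels need not follow surface protein, and no sorted progenitor library is among the 6, so the levels below have no second population to be set against.

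The level of each gene is given in FPKM, the number of sequenced fragments scaled to the length of the transcript and to the mapped total of the library. Being per length, it allows genes of unlike length to be set side by side. Such comparisons between genes stay approximate, because the material was amplified and the annotation is not given. Depth, estimated from the steps of low values, was between 9300000 and 11100000 fragments in KO libraries and between 9700000 and 14200000 fragments in WT libraries. Under its older symbol 8430410A17Rik, Hmces had 8.95, 0.222 and 6.95 FPKM in KO libraries, against 39.5, 45.4 and 41.0 FPKM in WT libraries, the direction the labels give. On the first principal component KO replicate 2 lay at 67.0, away from the other 5 libraries (-33.65 to 10.1). KO replicate 1 held 956 FPKM of Prg2, an eosinophil granule gene, and 675 FPKM of Igj (now Jchain), a plasma cell gene, values not approached in the other libraries (up to 22.2 and 83.8 FPKM).

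Transcripts of all 9 markers were read in every library, and no threshold was set to call a transcript present or absent. The proteins of Cd34, Cd48 and Flt3 are usually absent or low at the LT-HSC surface, and that of Slamf1 is usually present. Whether the transcript levels below go with surface protein was not tested, nor was the identity of the sorted cells. Cd34, Cd48 and Flt3, the genes of the progenitor side, were abundant in every library of both genotypes, and Slamf1, which encodes the CD150 receptor, was the lowest of the 9 in every library. Cd34 was the highest of the 9 in every library. In each library it stood between places 223 and 259 of all 23235 genes in KO and between places 230 and 258 in WT. Slamf1 stood between places 9180 and 10691 in KO and between places 8199 and 10005 in WT, where 11158 to 11448 genes in KO and 11069 to 11259 genes in WT reached 1 FPKM. The ranking does not depend on how libraries are scaled.

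**Figure D1:**
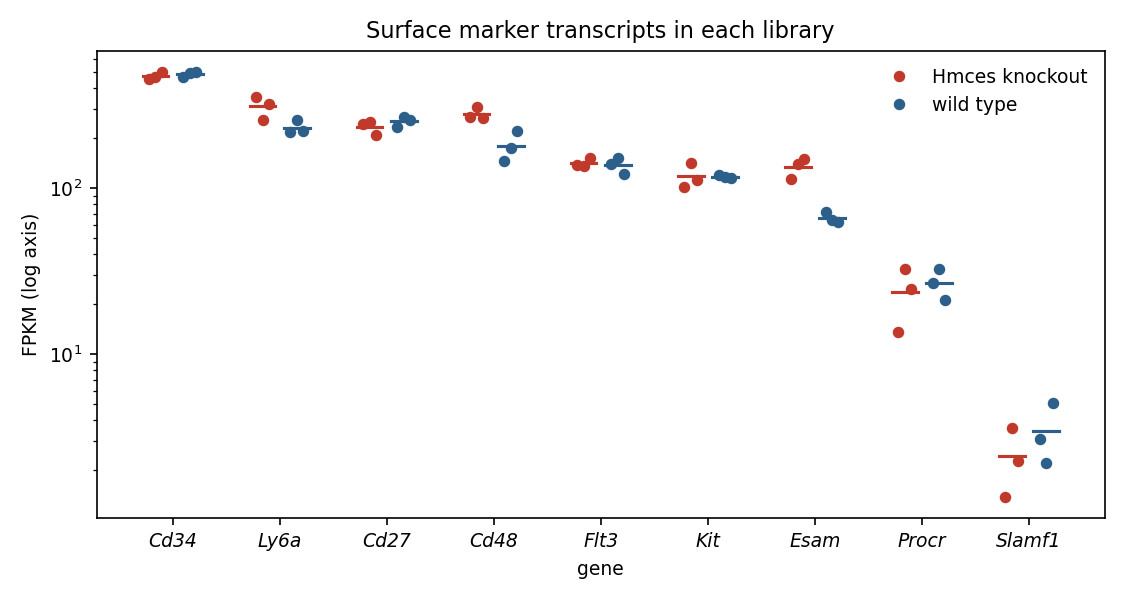
FPKM (log axis) of the 9 surface marker genes in each library, with KO points left of WT points and a bar at the mean of 3 libraries. Cd34 lies highest and Slamf1 lowest in both genotypes, and the points of Esam, Cd48 and Ly6a in KO lie above all WT points.

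Order of the means in KO was Cd34, Ly6a, Cd48, Cd27, Flt3, Esam, Kit, Procr and Slamf1. Ranges over libraries overlapped between Ly6a and Cd48, between Flt3 and Esam and between Esam and Kit, so these neighbours did not differ beyond their spread. In WT the order was Cd34, Cd27, Ly6a, Cd48, Flt3, Kit, Esam, Procr and Slamf1, and it was the same in each of the 3 WT libraries. Here the ranges of Cd27 and Ly6a, of Ly6a and Cd48, and of Cd48 and Flt3 overlapped. The mean of Cd34 was 1.52 times that of the next gene in KO and 1.93 times in WT. Procr exceeded Slamf1 by 9.71 times in KO and 7.73 times in WT.

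Between genotypes, 0 of the 9 genes passed the test over all genes tested (limma, Benjamini-Hochberg adjusted p under 0.05), against 0.113% of the 11532 genes tested. Over all genes tested 13 were called, 12 higher and 1 lower in KO, and with 1 library left out the count lay between 2 (without KO replicate 3) and 19 (without WT replicate 3), with 5 without KO replicate 2 and 7 without WT replicate 2. All 9 had a mean of at least 1 FPKM over the 6 libraries and so were tested. In 3 genes, Esam, Cd48 and Ly6a, every KO library lay above every WT library, where 7.47% of all genes tested did so. Their unadjusted p was under 0.05, and 4.32% of all genes tested were both higher in KO and under that value. No marker lay wholly below WT, as 8.34% of all genes tested did. The log2 difference was positive in 5 of the 9, and in 48.1% of all genes tested. The median log2 difference of the 9, KO minus WT on the log2(FPKM + 1) scale, was 0.00, beside -0.01 over all genes tested. In these bulk samples a different share of cells that carry a transcript and a different amount of RNA per cell cannot be told apart.

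**Figure D2:**
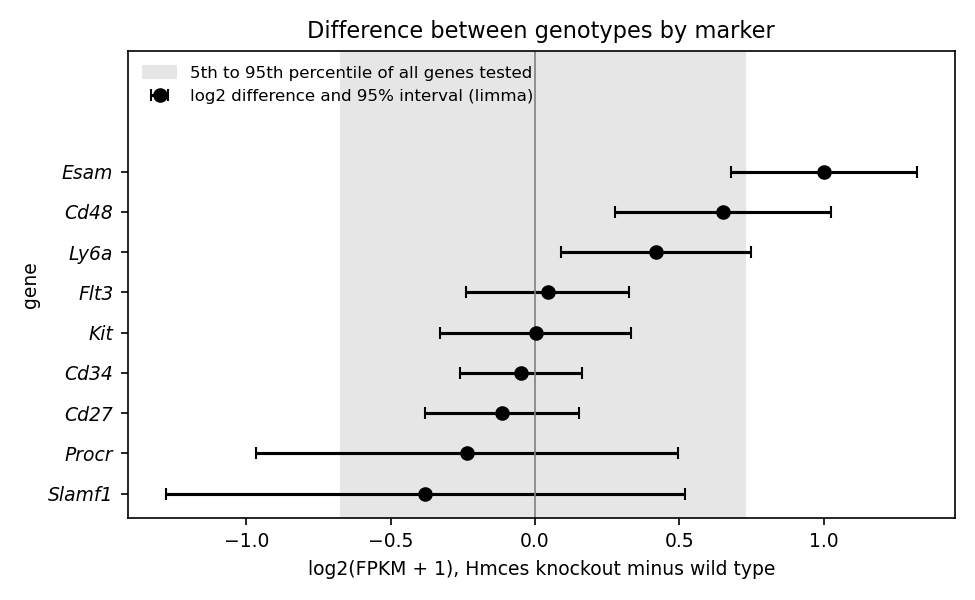
Log2 difference in log2(FPKM + 1), KO minus WT, for each marker with its 95% interval from limma, over 3 libraries per genotype. The grey band runs from the 5th to the 95th percentile of all genes tested (-0.67 to 0.73), and only Esam has its point outside it, at 1.0.

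The genes of the stem cell side are described first. Esam encodes an adhesion molecule of the immunoglobulin family found on stem cells, endothelium and platelets. It was read at 114, 139 and 149 FPKM in KO libraries, against 71.5, 64.5 and 62.1 FPKM in WT libraries. All KO values were above all WT values, and the lowest KO value exceeded the highest WT value by more than the range of the WT libraries. The means were 134 ± 18.0 FPKM in KO and 66.0 ± 4.87 FPKM in WT (SD, n = 3 each), a ratio of 2.03. The log2 difference was 1.0 (SE 0.14, 95% interval 0.68 to 1.32), and it did not pass (limma adjusted p = 0.0703). By the exact permutation test, two-sided, p was 0.1, and 3 libraries per genotype cannot give less. Esam passed with robust variance estimation (limma adjusted p = 0.0225) and with small RNA genes left out of the fit (adjusted p = 0.0161). Other settings took it further from passing. The limma adjusted p was 0.239 without the variance trend, 0.291 with replicate number as a block and 0.341 with every gene tested. The adjusted p lay between 0.0683 and 0.375 with 1 library left out.

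Because endothelial cells and platelets also carry Esam, their markers are given beside it. Of the 28 endothelial and stromal genes listed, 12 were tested, with 7 positive and 5 negative log2 differences and a median of 0.19. Their summed level was between 310 and 330 FPKM in KO libraries and between 319 and 349 FPKM in WT libraries. Cdh5, the cadherin that defines endothelium, was at 0, 0 and 0.34 FPKM in KO and at 0, 0.1 and 0 FPKM in WT and was chosen after its values were seen. The most abundant of the list was Egfl7, at 204 ± 8.24 FPKM in KO and 227 ± 11.8 FPKM in WT (SD, n = 3 each), followed by Pecam1 at 25.6 ± 8.80 FPKM in KO and 22.4 ± 6.70 FPKM in WT and Emcn at 25.1 ± 7.95 FPKM in KO and 19.3 ± 8.78 FPKM in WT. Of the 23 megakaryocyte and platelet genes, 21 were tested, 9 positive and 12 negative, with a median of -0.08. Their summed level was between 825 and 1382 FPKM in KO and between 1197 and 1649 FPKM in WT, and the platelet collagen receptor gene Gp6 was at 0 in all libraries. Among the most abundant were Pf4 and Cd9. Pf4, the platelet chemokine gene, had 382 ± 172 FPKM in KO and 686 ± 189 FPKM in WT (SD, n = 3 each, limma adjusted p = 0.512). Both sums overlapped between genotypes, and the part of either cell type in the Esam values was not tested.

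Ly6a encodes Sca-1, a small lipid-anchored surface protein used in nearly every mouse stem cell sort. It was read at 353, 257 and 322 FPKM in KO libraries, against 217, 256 and 220 FPKM in WT libraries. The groups did not overlap, but KO replicate 2 and WT replicate 2 were nearly equal. The means were 311 ± 48.8 FPKM in KO and 231 ± 21.7 FPKM in WT (SD, n = 3 each), with a log2 difference of 0.42 (SE 0.14, 95% interval 0.09 to 0.75, limma adjusted p = 0.488). Ly6a has similar copies in the Ly6 family, and how reads were shared between them is not given, so its level is less certain than that of the other markers.

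Kit encodes the receptor of stem cell factor. Its level was 101, 141 and 112 FPKM in KO libraries, against 120, 116 and 115 FPKM in WT libraries. The WT libraries lay close together, while KO replicates 1 and 3 lay below all of them and KO replicate 2 above. The log2 difference was 0.00 (SE 0.14), with a 95% interval from -0.33 to 0.33 (limma adjusted p = 0.999). Without KO replicate 2 it was -0.13. Cd27 encodes a receptor of the tumour necrosis factor receptor family whose ligand is CD70. It was read at 243, 251 and 208 FPKM in KO libraries, against 234, 269 and 255 FPKM in WT libraries, and the groups overlapped. Its log2 difference was -0.11 (SE 0.12, 95% interval -0.38 to 0.15, limma adjusted p = 0.786).

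Procr encodes the endothelial protein C receptor, EPCR. It was read at 13.6, 32.5 and 24.7 FPKM in KO libraries, against 26.7, 32.4 and 21.1 FPKM in WT libraries. KO replicate 1 was the lowest of the 6 and KO replicate 2 the highest, so the groups overlapped. The log2 difference was -0.23 (SE 0.32, 95% interval -0.97 to 0.50, limma adjusted p = 0.841), and it was 0.10 without KO replicate 1. Slamf1 was read at 1.39, 3.62 and 2.29 FPKM in KO libraries, against 3.10, 2.2 and 5.08 FPKM in WT libraries. The groups overlapped, and the log2 difference was -0.38 (SE 0.39, 95% interval -1.28 to 0.52, limma adjusted p = 0.788). The intervals of Procr and Slamf1 were the widest of the 9.

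On the progenitor side, Cd48 encodes a lipid-anchored protein that binds CD244 and CD2. It was read at 268, 307 and 263 FPKM in KO libraries, against 145, 175 and 220 FPKM in WT libraries. All KO values were above all WT values, and WT replicate 3 was the nearest to them. The means were 279 ± 24.1 FPKM in KO and 180 ± 37.7 FPKM in WT (SD, n = 3 each), a ratio of 1.56. The log2 difference was 0.65 (SE 0.16, 95% interval 0.28 to 1.02), which did not pass (limma adjusted p = 0.324).

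Cd34, which encodes a sialomucin, was read at 453, 465 and 496 FPKM in KO libraries, against 468, 494 and 499 FPKM in WT libraries. The groups overlapped, and all 6 libraries lay close together. The log2 difference was -0.05 (SE 0.09), with a 95% interval from -0.26 to 0.16 (limma adjusted p = 0.903), the narrowest of the 9. Under quantile normalization its sign turned, to 0.06. Flt3 encodes the receptor of FLT3 ligand, which acts in multipotent and lymphoid-primed progenitors. Its level was 137, 136 and 151 FPKM in KO libraries, against 139, 151 and 121 FPKM in WT libraries. The groups overlapped, and the log2 difference was 0.04 (SE 0.12, 95% interval -0.24 to 0.33, limma adjusted p = 0.937).

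Ratios within a library do not depend on its scaling. Cd48 exceeded Slamf1 by 193, 84.8 and 115 times in KO libraries and by 46.6, 79.4 and 43.2 times in WT libraries. Every KO ratio was above every WT ratio, with WT replicate 2 close to KO replicate 2. This ratio divides by Slamf1, which was low (1.39 to 5.08 FPKM) and overlapped between genotypes, so its size is imprecise. On the log2 scale of FPKM + 1 the ratio was 6.40 ± 0.38 in KO and 5.37 ± 0.35 in WT (SD, n = 3 each). Flt3 stood at 1.36, 0.962 and 1.35 times the level of Kit in KO libraries and at 1.16, 1.31 and 1.06 times in WT libraries, so the transcripts of these related receptor tyrosine kinases were at like levels in all 6. Cd34 exceeded Kit by 4.48, 3.29 and 4.44 times in KO libraries and by 3.92, 4.26 and 4.35 times in WT libraries, with overlap. These ratios were not tested.

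**Figure D3:**
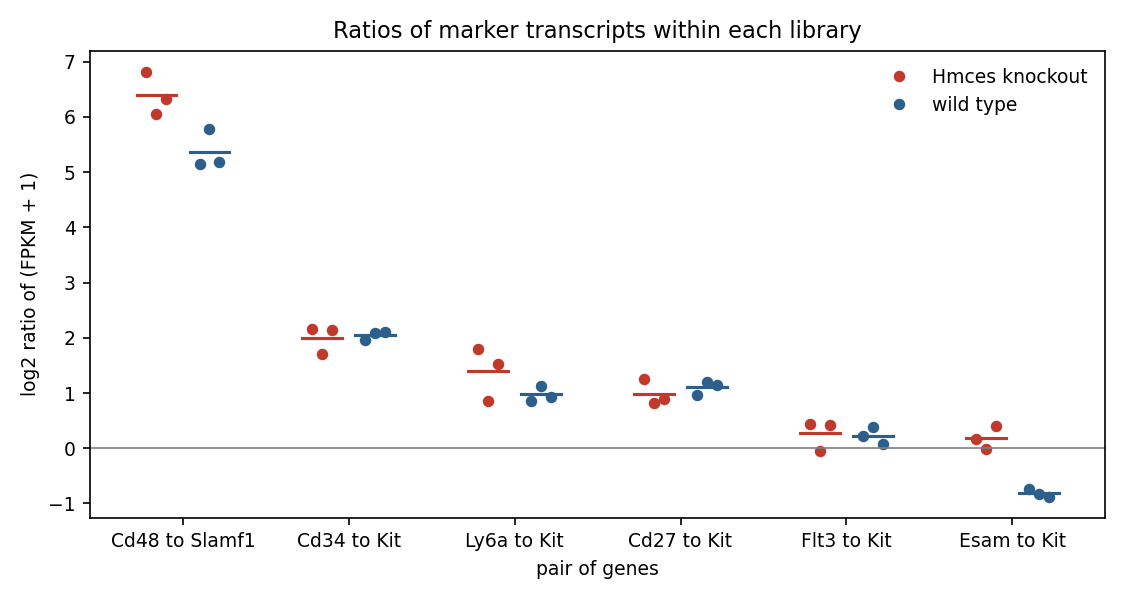
Log2 ratio of (FPKM + 1) for pairs of marker genes within each library, KO points left of WT points, with a bar at the mean of 3 libraries. Cd48 to Slamf1 is at 6.40 in KO and 5.37 in WT on average, and Esam to Kit is at 0.18 in KO and -0.81 in WT, while Cd34 to Kit and Flt3 to Kit overlap between genotypes. The low level of Slamf1 makes the Cd48 to Slamf1 ratio imprecise.

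The promoters of Cd48 and Slamf1 are shown because these genes of the SLAM family, both on chromosome 1, had very unequal levels, with Cd48 abundant and Slamf1 the lowest marker in every library. The windows, from RefSeq on build GRCm38.p6, hold 250 bases before and 50 after the annotated start. They are chr1:171681742-171682041 for Cd48 and chr1:171766882-171767181 for Slamf1, both on the plus strand. The deposited values were made on mm9, so these positions do not apply to that build. Capitals mark matches on either strand to AGATAA or TGATAA (the sequence GATA factors read), TGTGGT (RUNX), CCGGAA (ETS), TATAAA or CACGTG, and no matches overlapped.
Cd48: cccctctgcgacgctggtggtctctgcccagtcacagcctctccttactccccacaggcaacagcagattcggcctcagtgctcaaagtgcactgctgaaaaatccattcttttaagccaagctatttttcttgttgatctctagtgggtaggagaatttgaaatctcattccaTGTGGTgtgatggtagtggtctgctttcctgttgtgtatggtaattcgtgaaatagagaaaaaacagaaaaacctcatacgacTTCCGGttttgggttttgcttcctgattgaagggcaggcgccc
Slamf1: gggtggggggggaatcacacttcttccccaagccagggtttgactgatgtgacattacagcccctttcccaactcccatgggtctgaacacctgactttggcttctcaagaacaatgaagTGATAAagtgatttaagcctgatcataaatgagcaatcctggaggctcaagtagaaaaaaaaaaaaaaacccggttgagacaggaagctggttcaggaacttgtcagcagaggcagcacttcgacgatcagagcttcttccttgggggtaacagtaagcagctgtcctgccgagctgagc
Cd48 held 1 match to TGTGGT, present in 16.8% of all 32851 promoter windows of this length, and 1 to CCGGAA, present in 14.9%. Slamf1 held 1 match to TGATAA, present in 9.05% of windows. Neither held AGATAA (11.2% of windows), TATAAA (13.6%) or CACGTG (7.15%). Windows were matched for 7 of the 9 genes, and not for Esam and Ly6a. A match describes these letters and says nothing of binding.

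Other markers of LT-HSCs were set beside the 9. Of 25 listed genes, 22 were tested, with 9 positive and 13 negative log2 differences and a median of -0.09, and 0 passed. The median was 0.05 without KO replicate 1 and 0.02 without KO replicate 2. In 7 every KO library lay above every WT library and in 1 below, 36.4% of the 22, where 15.8% of all genes tested did either. Their summed level was between 989 and 1028 FPKM in KO libraries and between 994 and 1062 FPKM in WT libraries. Among the most abundant were Cd81, a tetraspanin gene (337 ± 8.32 FPKM in KO and 376 ± 19.5 FPKM in WT), and Meis1, a homeobox gene (144 ± 19.6 FPKM in KO and 147 ± 0.54 FPKM in WT; SD, n = 3 each). Of the genes that did not overlap, Slc22a3, a cation transporter gene, had 44.8 ± 8.48 FPKM in KO and 16.5 ± 3.61 FPKM in WT (SD, n = 3 each, limma adjusted p = 0.115). Genes more restricted to LT-HSCs were low. Slc22a3 and the next 3 genes were chosen after their values were seen. Hlf, a transcription factor gene, was at 10.4, 10.6 and 10.9 FPKM in KO and at 9.43, 11.4 and 8.85 FPKM in WT. Fgd5 was at 1.0, 0.559 and 1.23 FPKM in KO and at 0.758, 0.911 and 0.414 FPKM in WT. Hoxb5 was at 0.0618, 0.684 and 0.317 FPKM in KO and at 0.364, 0.135 and 0.912 FPKM in WT. Dntt, which encodes the terminal transferase of lymphoid progenitors, was at 279, 199 and 217 FPKM in KO and at 154, 214 and 229 FPKM in WT, above Kit in every library.

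Other surface genes of stem cells lay on both sides of 0. Of 30 surface genes of stem cells outside the 9, 28 were tested, 16 positive and 12 negative, with a median log2 difference of 0.06. None passed. In 2 every KO library lay above every WT library and in 1 below, 10.7% of the 28, where 15.8% of all genes tested did either. Art4, which encodes a surface protein of the ADP-ribosyltransferase family, had 13.8 ± 1.77 FPKM in KO and 7.19 ± 1.40 FPKM in WT (SD, n = 3 each, limma adjusted p = 0.385). Alcam, an adhesion molecule gene, had 3.60 ± 1.61 FPKM in KO and 1.46 ± 0.97 FPKM in WT (adjusted p = 0.564).

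Surface genes of multipotent and committed progenitors numbered 28 tested of 30, with 19 positive and 9 negative log2 differences and a median of 0.18, beside -0.01 over all genes tested. None passed. In 8 every KO library lay above every WT library and in 2 below, 35.7% of the 28, where 15.8% of all genes tested did either. Clec12a, a lectin receptor gene of myeloid cells, had 38.6 ± 2.04 FPKM in KO and 11.2 ± 3.59 FPKM in WT (SD, n = 3 each, limma adjusted p = 0.0544). Fcgr3, which encodes CD16 of granulocyte and monocyte progenitors, had 26.3 ± 6.76 FPKM in KO and 5.56 ± 1.79 FPKM in WT (adjusted p = 0.0703).

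Surface genes of mature lineages were 15 tested of 26, with 11 positive and 4 negative differences and a median of 0.20, and 0 passed. The list was made without the antibodies of this sort, which are not given, so it need not match what the sort removed. In 3 every KO library lay above every WT library and in 1 below, 26.7% of the 15, where 15.8% of all genes tested did either. Ly6c2, a monocyte and granulocyte gene with a near-identical copy and so uncertain, had 140 ± 12.4 FPKM in KO and 21.1 ± 15.3 FPKM in WT (limma adjusted p = 0.0703). Cd2, a T cell gene, was listed at 0 in every KO library and had 2.05 ± 0.37 FPKM in WT (SD, n = 3, limma adjusted p = 0.289). Its mean over the 6 libraries was 1.02 FPKM, so it reached the minimum mean of 1 FPKM only through its WT values. With levels this low and that dependence, its difference cannot be read as a genotype result. Cd3e was at 0, 3.18 and 0 FPKM in KO and at 0, 0.801 and 0 FPKM in WT. Cd3d was at 5.02, 4.66 and 7.52 FPKM in KO and at 0.73, 1.21 and 2.55 FPKM in WT, with every KO library above every WT library (limma adjusted p = 0.331). Cd3g was at 0 in every KO library and at 0.627, 0.463 and 0 FPKM in WT. Cd4 and Klrb1c of the same list had negative log2 differences (-0.79 and -0.80) and overlapped between genotypes. Like Cd2, both reached the minimum mean only through WT. The T cell receptor complex genes Cd3e, Cd3d and Cd3g, and Cd4 and Klrb1c, were chosen after their values were seen.

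**Figure D4:**
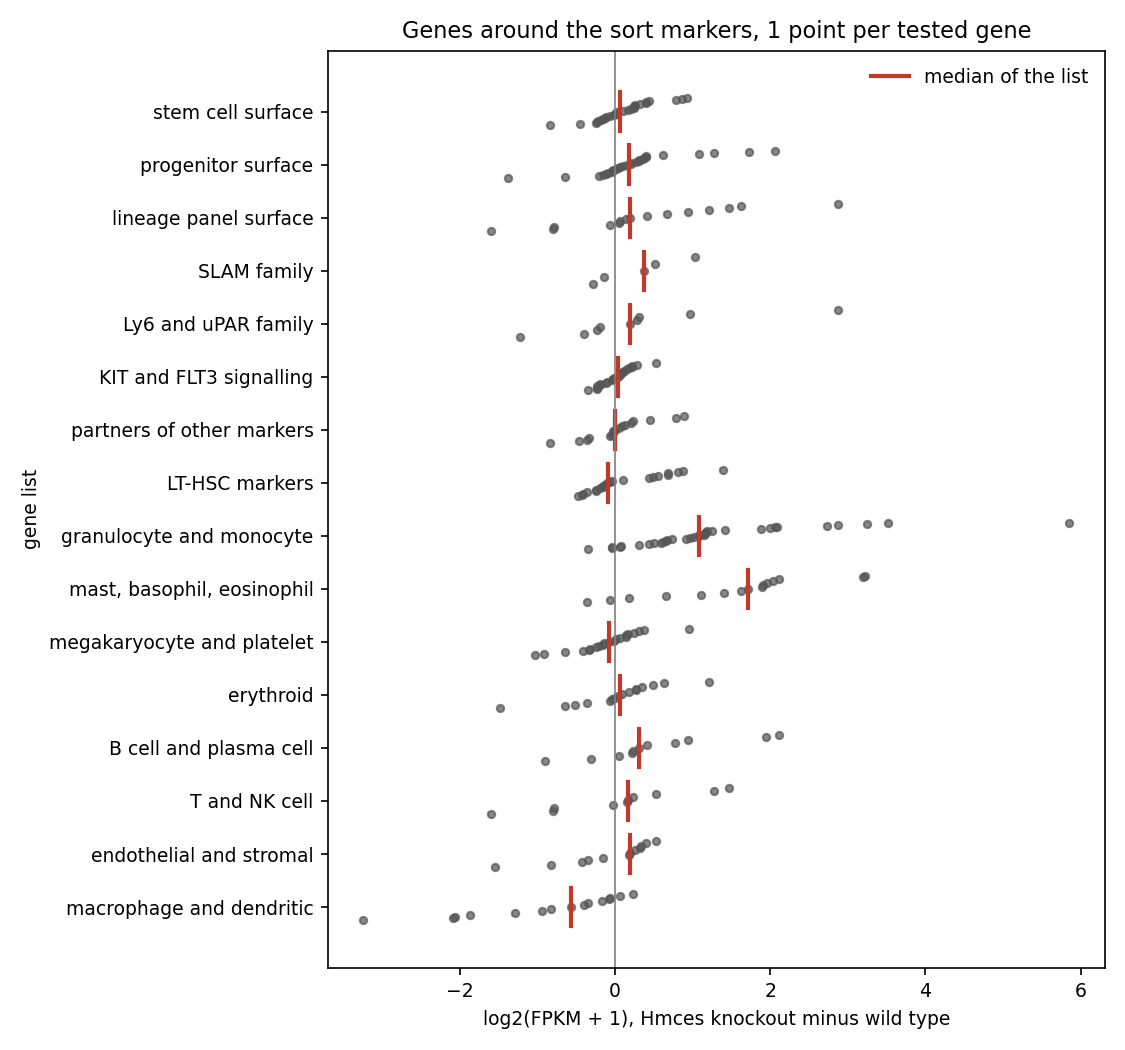
Log2 difference in log2(FPKM + 1), KO minus WT, of each tested gene in each of the gene lists, without the 9 markers, 1 point per gene, with a red bar at each list's median. The medians are 1.71 for mast cells, basophils and eosinophils, 1.08 for granulocytes and monocytes and -0.56 for macrophages and dendritic cells, and lie between -0.09 and 0.37 for the other lists. Some genes, such as Epx and Fcna, reached the minimum mean of 1 FPKM through 1 genotype only.

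Of 34 granulocyte and monocyte genes tested, 4 passed, all higher in KO, where 0.104% of all genes tested did so. With 1 library left out the count that passed lay between 0 (without KO replicate 2 or KO replicate 3) and 6 (without WT replicate 3), and it was 1 without each of KO replicate 1, WT replicate 1 and WT replicate 2. Positive log2 differences were found in 31, with a median of 1.08, and negative ones in Gfi1, Csf3r and Ccr2. In 24 every KO library lay above every WT library, 70.6% of the 34, where 7.47% of all genes tested did so. The 4 that passed were Hp, Anxa3, Mpo and Ctsg, of which Mpo, the myeloperoxidase gene, had 1160 ± 348 FPKM in KO and 177 ± 71.2 FPKM in WT (SD, n = 3 each, limma adjusted p = 0.0307). Hp had 122 ± 18.8 FPKM in KO and 30.0 ± 5.79 FPKM in WT (adjusted p = 0.0102). Anxa3 had 26.9 ± 3.78 FPKM in KO and 5.56 ± 0.77 FPKM in WT (adjusted p = 0.0146), and Ctsg, the cathepsin G gene, had 544 ± 78.8 FPKM in KO and 56.0 ± 43.7 FPKM in WT (adjusted p = 0.0494). The summed level of the list was between 21213 and 27669 FPKM in KO libraries and between 7791 and 11784 FPKM in WT libraries, with no member at 0 in all libraries. S100a8 and S100a9, which mature neutrophils carry, had 9853 ± 2397 and 5284 ± 1011 FPKM in KO and 4135 ± 1004 and 2394 ± 579 FPKM in WT. Lyz2 had 890 ± 207 FPKM in KO and 619 ± 85.6 FPKM in WT. CD48 protein is also carried by these cells, and the part of their RNA in the differences of Cd48, Ly6a and Esam was not tested.

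**Figure D5:**
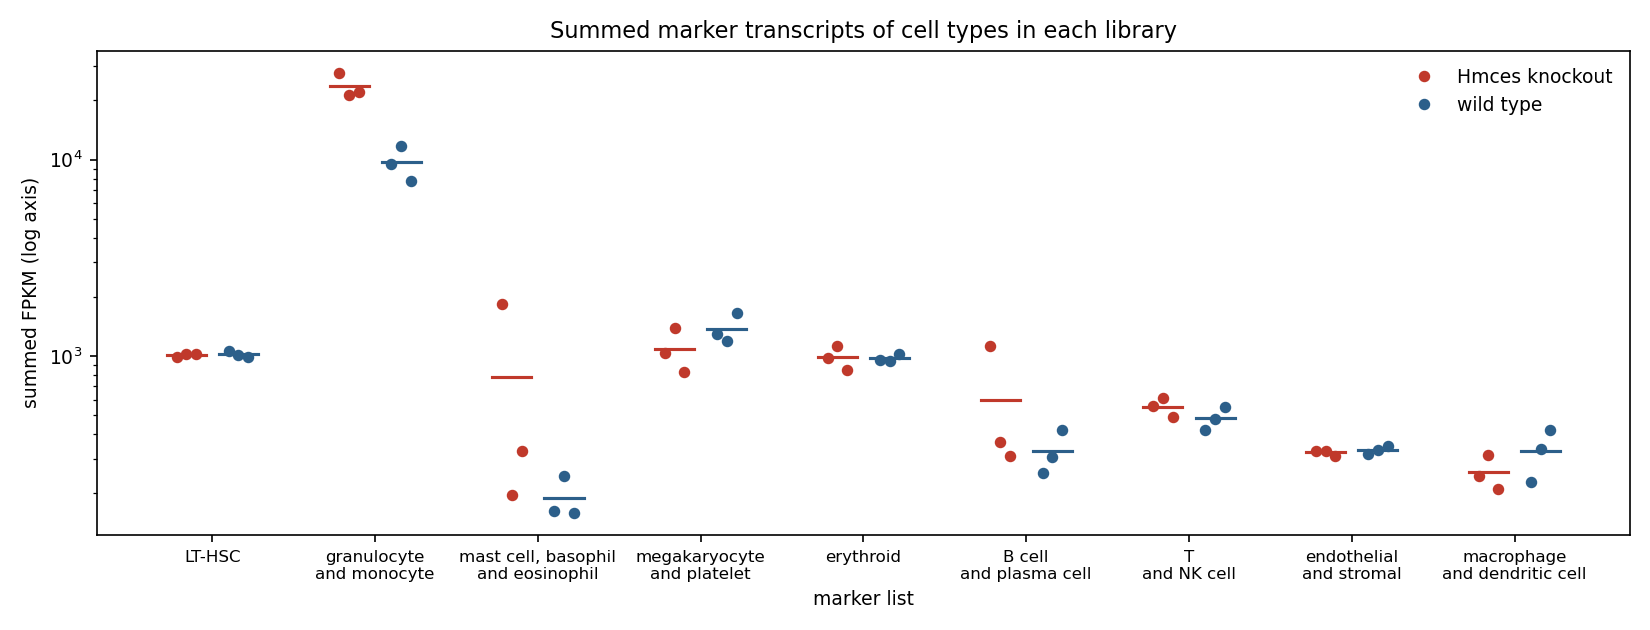
Summed FPKM (log axis) of each cell type marker list without the 9 markers in each library, KO points left of WT points, with a bar at the mean of 3 libraries. The granulocyte and monocyte sum is at 21213 FPKM or above in KO and at 11784 FPKM or below in WT, while the sums of the other lists overlap between genotypes.

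The remaining cell type lists had 0 genes that passed. Mast cell, basophil and eosinophil genes had a median of 1.71 over 15 tested, 13 of them positive, with sums between 195 and 1834 FPKM in KO and between 159 and 244 FPKM in WT. Among the positive ones, Epx, Prg3 and Ms4a2 reached the minimum mean only through KO, so their differences cannot be read as a genotype result. For Epx and Prg3 this rested on KO replicate 1 alone, at 49.5 and 60.5 FPKM. Without KO replicate 1 the median was 0.46, over the same 15 genes. That library gave the highest sum, with Prg2 and Ear1 leading it, and Gata2, also a stem cell factor, had 73.9 ± 17.9 FPKM in KO and 94.8 ± 15.9 FPKM in WT. The 4 mast cell protease genes (Mcpt4, Cma1, Tpsab1 and Tpsb2) were at 0 in all libraries. Erythroid genes had a median of 0.06 over 16 tested, with sums between 854 and 1130 FPKM in KO and between 940 and 1026 FPKM in WT, and Car2, a carbonic anhydrase gene, had 720 ± 25.8 FPKM in KO and 743 ± 50.2 FPKM in WT, ahead of Car1 and Blvrb. B cell and plasma cell genes had a median of 0.31 over 11 tested, led by Dntt, Igj and Cd79b, with sums between 311 and 1122 FPKM in KO and between 255 and 420 FPKM in WT. T and NK cell genes had a median of 0.16 over 10 tested, led by Nkg7, Lat and Lck, with sums between 489 and 610 FPKM in KO and between 418 and 549 FPKM in WT. Macrophage and dendritic cell genes, which include the antigen presentation genes H2-Ab1, Cd74 and H2-Aa, had a median of -0.56 over 15 tested, 13 of them negative, with sums between 211 and 315 FPKM in KO and between 229 and 419 FPKM in WT. Among the negative ones, Fcna, Emr1 and Mrc1 had KO means under 1 FPKM and reached the minimum mean only through WT. Their differences cannot be read as a genotype result, and the median includes them.

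Of the relatives and partners of the markers, 0 passed. Of the SLAM family and its adaptors, 5 of 10 genes besides Cd48 and Slamf1 were tested, 3 positive and 2 negative, with a median of 0.37 and 0 passed. Cd84 had 23.8 ± 1.91 FPKM in KO and 16.4 ± 2.23 FPKM in WT (SD, n = 3 each, limma adjusted p = 0.490), and Slamf9 had 2.16 ± 1.88 FPKM in KO and 0.376 ± 0.652 FPKM in WT (adjusted p = 0.678). Slamf9, 1 of the 3 positive genes, was at 3.45, 3.03 and 0 FPKM in KO and at 0, 1.13 and 0 FPKM in WT. It reached the minimum mean of 1 FPKM only through its KO values, so its difference cannot be read as a genotype result. Sh2d1a, the adaptor that SLAM receptors use in T cells, was at 0 in all libraries. Of the Ly6 and uPAR family, 9 of 25 were tested besides Ly6a, 5 positive and 4 negative, with a median of 0.20 and 0 passed. In 3 of them every KO library lay above every WT library and in 2 below, 55.6% of the 9, where 15.8% of all genes tested did either. Of the 2 below, Ly6g5b had 0.485 ± 0.273 FPKM in KO and 2.60 ± 1.43 FPKM in WT. It reached the minimum mean only through WT, so its difference cannot be read as a genotype result. Besides Ly6c2, the smallest p was that of Cd59a, a complement inhibitor gene, at 15.5 ± 1.72 FPKM in KO and 7.55 ± 1.74 FPKM in WT (adjusted p = 0.324).

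Of 25 ligands and signalling genes of KIT and FLT3, 23 were tested, 12 positive and 11 negative, with a median of 0.03, 0 passed and 1 gene without overlap between genotypes, 4.3% of the 23, where 15.8% of all genes tested had none. Kitl, the gene of stem cell factor, was listed at 0 in every KO library and at 0.0392, 0 and 0.575 FPKM in WT. Pdgfrb, a related receptor, had 14.0 ± 3.49 FPKM in KO and 9.27 ± 1.94 FPKM in WT (limma adjusted p = 0.588), and Socs6, whose product binds KIT, had 11.2 ± 2.02 FPKM in KO and 14.5 ± 2.2 FPKM in WT (adjusted p = 0.684; SD, n = 3 each). Of 26 partners of CD27, EPCR, ESAM and CD34, 17 were tested, 8 positive and 9 negative, with a median of -0.003 and 0 passed. Siva1, whose product binds the tail of CD27, had 222 ± 62.9 FPKM in KO and 300 ± 7.57 FPKM in WT (adjusted p = 0.520). Pros1, the protein S gene, had 6.55 ± 2.24 FPKM in KO and 3.12 ± 1.31 FPKM in WT (adjusted p = 0.532). Proc, the gene of the EPCR ligand protein C, was at 0 in all libraries.

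The genes most like a marker across the 6 libraries were listed by Pearson's r of log2(FPKM + 1). For Esam they were Sltm (r = 0.997), Cdk5rap1 (r = 0.985) and Ccdc111, now Primpol (r = 0.976). Their values were all higher in KO than in WT, as with Cdk5rap1 at 33.6, 37.9 and 37.9 FPKM in KO and at 10.7, 9.80 and 8.54 FPKM in WT. For Cd48 they included Gatm (r = 0.993) and Ddah2 (r = 0.990), and Gatm was at 52.1, 57.3 and 53.6 FPKM in KO and at 36, 38.7 and 46.4 FPKM in WT. For Kit they were Aars (r = 0.999), Plekhb2 (r = 0.994) and Sf3a1 (r = 0.994). Aars stood at 12.6, 26.0 and 15.3 FPKM in KO and at 17.8, 17.0 and 16.8 FPKM in WT, with KO replicate 2 highest as for Kit. With 6 points that share libraries and many genes to choose from, these values describe the libraries only.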

How the data were processed

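RNA sequencing of sorted LT-HSCs, amplified by the Smart-seq2 method per the labels' protocols, gave 3 KO and 3 WT libraries. The authors deposited FPKM values per gene, 1 column per library. Tools listed, without roles, in the submitters' processing notes are TopHat2 2.1.1 and Cufflinks 2.2.1, with build mm9. Annotation, options and strand: not given in the sources used here. Each FPKM value scales a gene to its library's total, so levels are relative, and amplified reads are not independent molecules. Depth was estimated from the steps of low values in 1427 genes with 1 GENCODE transcript over 1500 nt, assuming fragments of 200 nt, and no count test was run.

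Genes with a mean of at least 1 FPKM were fitted as log2(FPKM + 1) with limma 3.58.1 in R 4.3.3 (mean-variance trend, genotype as the term, two-sided, Benjamini-Hochberg over all genes tested), checked on simulated data. Single genes also had an exact permutation test. The members and lists were chosen with earlier results of these data known. Named are all members and Hmces; list genes that passed; of each surface, family or signalling list the 2 smallest p; of each cell type list the 3 most abundant; and, for the 2 members with the smallest p and the 1 with the largest, the 3 genes with the highest r among those with a mean of at least 10 FPKM, without predicted and small RNA genes. Some genes that this rule names are not reported here. Alternatives were other pseudocounts, filters, scalings and variance models, leaving out small RNA genes or each library, and a replicate block.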

Additional observations from a re-analysis of the deposited data

How the results depend on the processing

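Over all genes 13 were called. Testing every gene, however low, gave 3, a fit without the variance trend 6, robust estimation 20 and leaving out small RNA genes 36. The count ranged from 2 (without KO replicate 3) to 19 (without WT replicate 3) with 1 library left out, including 5 without KO replicate 2 and 7 without WT replicate 2. Of the 9 markers, 0 were called, and 1, Esam, with robust estimation or small RNA genes left out (log2 difference 1.0 in both, limma adjusted p = 0.0225 and 0.0161). For Esam the limma adjusted p rose to 0.239 without the variance trend, 0.291 with the replicate block and 0.341 with every gene tested. The sign turned under quantile normalization for Cd34 (0.063). With 1 library left out it turned for Kit (-0.13 to 0.10), Flt3 (-0.041 to 0.12) and Procr (-0.50 to 0.10). The cause was not tested. Esam, Cd48 and Ly6a stayed positive, and Slamf1 and Cd27 negative, under each alternative run. Slamf1 has no value with a minimum mean of 5 FPKM, which removes it. Leaving out libraries for the lists was chosen after seeing the data. The median then turned sign for the LT-HSC, megakaryocyte, erythroid, KIT and FLT3 and partner lists, and 1 gene passed in the progenitor list (without WT replicate 3) and in the lineage and Ly6 lists (without WT replicate 1). The lineage and Ly6 lists share Ly6c1 and Ly6c2, so the calls in them need not be different genes. With the replicate block 2 genes and 0 markers were called. Deviations of same-numbered libraries correlated at 0.08, 0.01 and 0.04 for replicates 1 to 3, so the numbers were not taken as pairs, and not every library correlated best with its own number. Levels of Slamf1 near 1 to 5 FPKM limit the precision of its difference.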
